A study of Homo sapiens with 16 samples.

Results

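The genes described here act in interferon signalling. They are the receptor chains IFNAR1 and IFNAR2, the receptor-bound kinases JAK1 and TYK2, and the transcription factors STAT2 and IRF9. The interferon regulatory factors IRF1, IRF3 and IRF7 complete the set. All 9 were chosen by gene symbol from the 23354 genes of the count table, and all 9 are in it. Total RNA depleted of ribosomal RNA was sequenced from the human multiple myeloma lines MM1S, labelled glucocorticoid sensitive, and MM1R, labelled glucocorticoid resistant. Cells of each line were given vehicle, 0.1 μM TAK-981, 1 μM Dexamethasone (Dex) or both agents at those doses (combo) for 48 h. There were 2 libraries in each of the 8 groups, 16 in all. TAK-981 inhibits the SUMO-activating enzyme, which starts the attachment of SUMO to proteins, and Dex is a synthetic glucocorticoid. Each line is a single established culture, so a difference between MM1S and MM1R is a difference between 2 lines and cannot be assigned to their glucocorticoid response. No group was given interferon.

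Type I interferons bind a receptor made of IFNAR1 and IFNAR2. TYK2 is bound to IFNAR1 and JAK1 to IFNAR2, and once activated they phosphorylate STAT proteins. STAT2 and IRF9 act together in the complex ISGF3, which binds the interferon-stimulated response element of interferon-stimulated genes. IRF3 is present before any stimulus and starts interferon transcription when pattern-recognition receptors are triggered. IRF7 is itself an interferon-stimulated gene and amplifies interferon production, and IRF1 is a transcription factor best known as a target of interferon gamma through the gamma-activated site. Plasma cells depend on another member of the family, IRF4.

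Promoter sequence from RefSeq (build GRCh38.p14, a later build than that of the counts) was found for 6 of the 9 genes, as 9 windows from 250 bases before to 50 bases after a transcription start. IFNAR2, IRF3 and IRF7 had no window. Both strands were searched for the core of the interferon-stimulated response element, GAAANNGAAA, and for that of the gamma-activated site, TTCNNNGAA. The first was in 3.57% of all 35116 windows and in none of the 9. The second was in 7.66% of all windows, and in those of IRF1 and IRF9. The 250 bases before the start of both genes are shown because they hold this core, in capitals, and those of STAT2 because it rose most among the genes with a window and holds neither core. IRF1 is chr5:132490774-132491023, minus strand, with the core from base −124 to −116 counted from the start. IRF9 is chr14:24161015-24161264, plus strand, with the core from −63 to −55. STAT2 is chr12:56360108-56360357, minus strand. A match of these letters is a description of the window and does not show that a factor binds there.
IRF1: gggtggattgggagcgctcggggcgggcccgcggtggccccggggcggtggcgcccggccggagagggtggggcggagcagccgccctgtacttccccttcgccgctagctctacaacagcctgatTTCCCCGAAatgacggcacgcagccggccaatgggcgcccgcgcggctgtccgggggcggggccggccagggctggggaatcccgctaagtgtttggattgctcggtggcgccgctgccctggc
IRF9: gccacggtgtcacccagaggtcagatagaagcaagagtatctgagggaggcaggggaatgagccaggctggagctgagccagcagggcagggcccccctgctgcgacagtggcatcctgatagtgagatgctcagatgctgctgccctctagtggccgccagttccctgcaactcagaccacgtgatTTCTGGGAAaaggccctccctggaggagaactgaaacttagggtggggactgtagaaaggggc
STAT2: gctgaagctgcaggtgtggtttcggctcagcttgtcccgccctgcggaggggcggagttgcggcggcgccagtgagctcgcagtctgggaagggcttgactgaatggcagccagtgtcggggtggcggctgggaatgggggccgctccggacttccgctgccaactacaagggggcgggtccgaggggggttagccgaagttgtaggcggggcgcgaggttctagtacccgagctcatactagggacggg

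The libraries held 15707587 to 24796539 counts (median 20268927), and TMM scaling factors ran from 0.978 to 1.031. Replicates of a group differed by more than counting noise in every group, where the ratio of chi-square to its degrees of freedom was between 2.08 and 21.2. The ratio was highest in MM1S TAK-981 (21.2) and MM1S Dex (19.2), and lowest in MM1R combo (2.08) and MM1R TAK-981 (2.44). All groups shared 1 estimate of the spread in the tests, so the p-values do not follow these differences between groups. Fits of only the groups compared are given with the processing alternatives. With 2 libraries a group, groups that do not overlap are a description and not a test. With Dex in MM1R, where no gene passed, the libraries of IFNAR2, STAT2, IRF1, IRF3 and IRF7 also did not overlap those of vehicle. The share of all genes with such separation was not computed. Plasma cell markers fitted the labelled cell type, with 8 of 8 past the filter on low counts and a summed level of 4150 to 9340 CPM (counts scaled to library size). Markers of mature B cells (0 of 4 past the filter, at most 0.557 CPM summed) and myeloid cells (0 of 4, at most 0.543 CPM) were near 0. Those of T cells (1 of 4, up to 5.76 CPM) and stroma (2 of 4, up to 13.4 CPM) were low. Their part in any result below was not tested. In bulk RNA, fewer cells carrying a transcript and less of it per cell cannot be told apart.

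Of the 9 genes, 8 passed the filter and were tested among 14215 genes. The exception was IRF9, the DNA-binding partner of STAT2 in ISGF3, listed at 0 in all 16 libraries. A count of 0 allows up to 3 counts, or 0.121 to 0.191 CPM depending on the library. The row cannot be read as absence of the transcript, since in the coordinates of the table (hg19) IRF9 lies on the plus strand of chromosome 14 from 24629729 to 24635774, wholly inside the span of RNF31 on the same strand and with the same end. By gene span alone, a read from there lies in 2 genes at once. Whether exons of RNF31 lie in the span of IRF9 was not checked, and how such reads were counted is not given in the sources used here. Of 202 genes that lie inside a longer gene of the same strand with the same 3′ end, 47 (23.3%) were at 0 in every library, against 2735 of 21251 genes (12.9%) inside none. These classes were set by gene span and not matched for gene type, length or level. Whether the overlap gave the zeros of IRF9 was not tested. RNF31, a subunit of the linear ubiquitin ligase complex, was counted, at 22.2 ± 0.125 CPM in MM1S vehicle (SD, n = 2) and 31.3 ± 3.19 CPM in MM1S TAK-981. No value for IRF9 is therefore given below.

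Some of the other genes share ground with a neighbour as well. In the table IFNAR2 (chromosome 21, 34602231 to 34636820, plus strand) shares 15807 bases with IL10RB on the same strand, and IRF1 (chromosome 5, 131776132 to 131831259, minus strand) shares 46418 bases with C5orf56 on the other strand. The IRF1 row spans 55128 bases, the annotation behind it is not known, and all IRF1 values below are those of this row. IRF3 (chromosome 19, 50162826 to 50169132, minus strand) shares 734 bases with BCL2L12 and JAK1 (chromosome 1, 65298906 to 65432619, minus strand) 9 bases with RAVER2, both on the other strand. On the same strand, the row of SNAR-A3 covers all 6307 bases of IRF3. SNAR-A3 was listed at 0 in every library, while IRF3 held 1434 to 2602 counts. How reads in the shared span were assigned is not given. IFNAR1 (chromosome 21, 34696734 to 34732128, plus strand), TYK2 (chromosome 19, 10461204 to 10491277, minus strand), STAT2 (chromosome 12, 56735382 to 56754037, minus strand) and IRF7 (chromosome 11, 612555 to 615999, minus strand) overlapped no other gene of the table. Whether strand was used in counting is not stated, so reads from an antisense partner cannot be told apart where genes overlap.

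The first comparison asks how strongly each of the 8 genes tested was expressed without treatment. Per length, in RPKM (CPM per kilobase of the gene length in the table), the kinase JAK1 was the most abundant of the 8 in vehicle-treated cells of both lines, and IRF7 the least. In MM1S the order was JAK1 at 69.8 ± 0.576 RPKM (SD, n = 2), STAT2 at 63.8 ± 3.4, IFNAR1 at 60.3 ± 1.36, IFNAR2 at 39.1 ± 1.17, IRF1 at 33.2 ± 0.906, IRF3 at 26.9 ± 2.11, TYK2 at 20.8 ± 1.05 and IRF7 at 7.42 ± 0.185. In MM1R it was JAK1 at 54 ± 0.729 RPKM, IFNAR2 at 51 ± 0.656, IFNAR1 at 49.1 ± 0.0556, STAT2 at 48.2 ± 0.889, IRF1 at 34.7 ± 0.176, TYK2 at 23.3 ± 0.418, IRF3 at 19.9 ± 0.0883 and IRF7 at 7.72 ± 0.121. JAK1 lay above 95.3% of the genes tested in MM1S and IRF7 above 50.4%. Neighbours in either order did not overlap in their 2 libraries, but STAT2 and IFNAR1 nearly touched, with nearest libraries of 61.4 and 61.3 RPKM in MM1S and of 48.8 and 49 in MM1R, so that the order of this pair was not separated from the spread.

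**Figure D1:**
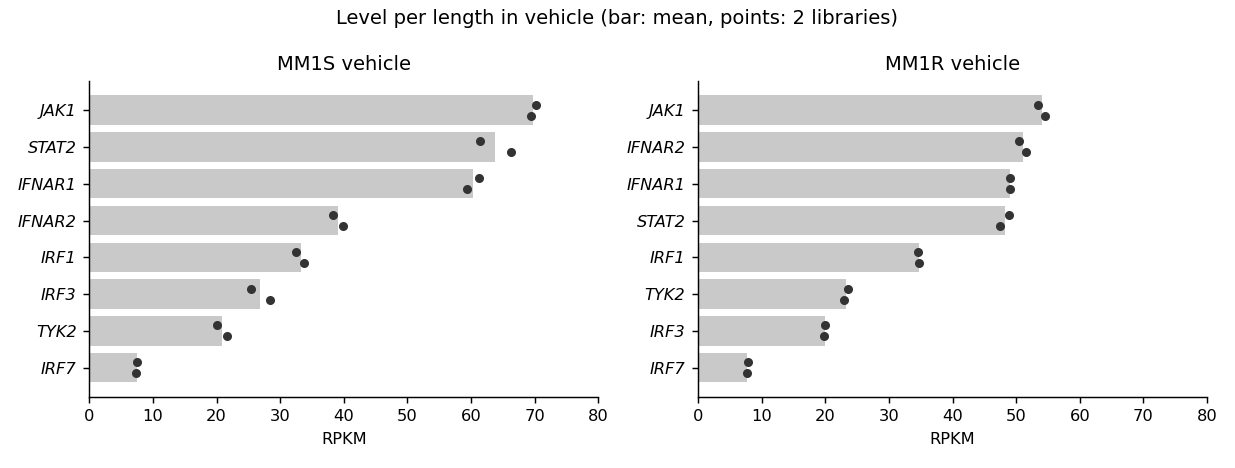
Level per length (RPKM, horizontal axis) of the 8 genes tested in vehicle-treated MM1S and MM1R, with bars for the mean and points for the 2 libraries. JAK1 leads in both lines, at 69.8 and 54 RPKM, and IRF7 is last, at 7.42 and 7.72 RPKM.

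Without treatment, MM1R differed from MM1S in 6 of the 8 genes, with 2 higher and 4 lower, where 48.2% of all genes tested differed. IFNAR2, the ligand-binding receptor chain, was at 158 and 161 CPM in MM1R and at 120 and 125 in MM1S. Both MM1R libraries lay above both MM1S libraries, with a log2 fold change of 0.38 (95% interval 0.27 to 0.50, edgeR adjusted p = 2.35e-05). The partner chain IFNAR1 went the other way, at 309 CPM in both MM1R libraries and at 385 and 373 in MM1S (log2 fold change −0.30, edgeR adjusted p = 0.00195). JAK1 (−0.37), STAT2 (−0.41) and IRF3 (−0.43) were lower in MM1R, with edgeR adjusted p between 2.05e-05 and 0.000383, and none of their libraries overlapped between the lines. TYK2 was higher in MM1R by 0.16 (edgeR adjusted p = 0.0332), a call lost without vehicle replicate 1 of MM1S (0.11) and without either vehicle library of MM1R. IRF1 (0.07, edgeR adjusted p = 0.442) and IRF7 (0.06, 0.591) gave intervals of −0.07 to 0.20 and −0.11 to 0.22. The sum of the 8 plasma cell markers was also higher in MM1R, at 8080 to 9340 CPM against 4150 to 7140 in MM1S. These ranges take in treated as well as vehicle libraries and do not show the single markers. The part of these markers in the differences was not tested.

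TAK-981 raised most of the pathway in both lines. In MM1S 6 of the 8 genes rose and 1 fell, and in MM1R 6 rose and none fell. Of all genes tested 49% changed in MM1S, 25.2% upward and 23.7% downward, and 53.4% in MM1R, 25.8% upward and 27.6% downward. Their median log2 fold change was 0.47 in MM1S and 0.46 in MM1R, against 0.04 and 0.00 over all genes tested. IRF7 rose most, 3.39-fold in MM1S and 3.38-fold in MM1R. STAT2 came next, at 1.85-fold and 1.92-fold, followed by IRF1 at 1.55-fold and 1.63-fold.

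Of the receptor chains, IFNAR1 rose under TAK-981 in both lines. In MM1S it went from 385 and 373 CPM in vehicle to 527 and 449 in TAK-981, and in MM1R from 309 in both libraries to 434 and 419. All 4 treated libraries lay above the vehicle libraries of their line. The log2 fold change was 0.36 in MM1S (95% interval 0.22 to 0.51, edgeR adjusted p = 0.000305) and 0.47 in MM1R (0.32 to 0.61, edgeR adjusted p = 2.23e-05). The MM1S value rested partly on TAK-981 replicate 1, without which it was 0.24 and still passed (0.24 to 0.47 over 16 fits that each omitted a library). IFNAR2 moved the other way from its partner in MM1S. It went from 120 and 125 CPM to 109 and 102 in MM1S and from 158 and 161 to 154 and 155 in MM1R. Both treated libraries of each line lay below both vehicle libraries, with a log2 fold change of −0.21 in MM1S (−0.33 to −0.09, edgeR adjusted p = 0.00535) and of −0.05 in MM1R (−0.16 to 0.07, edgeR adjusted p = 0.515). Fitted to the MM1S vehicle and TAK-981 libraries alone, the first gave an adjusted p of 0.0559. IL10RB, which overlaps IFNAR2 and encodes a receptor chain for interleukin 10 and interferon lambda, rose by 0.23 on the log2 scale in each line (edgeR adjusted p = 0.0103 and 0.00788).

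The kinases moved little. JAK1 was at 363 and 358 CPM in MM1S vehicle and at 394 and 379 in MM1S TAK-981, and at 276 and 281 in MM1R vehicle and 310 and 321 in MM1R TAK-981. The treated libraries lay above the vehicle libraries in both lines, which is not a test with 2 libraries a group. Only the MM1R change passed, at a log2 fold change of 0.18 (95% interval 0.07 to 0.29, edgeR adjusted p = 0.00935), against 0.10 in MM1S (−0.01 to 0.21, edgeR adjusted p = 0.134). The MM1R call was lost without vehicle replicate 1 (0.16) or without TAK-981 replicate 2 (0.15). TYK2 was at 92.9 and 99.8 CPM in MM1S vehicle and 114 and 124 in MM1S TAK-981. In MM1R it was at 109 and 106 in vehicle and 117 and 120 in TAK-981. Its log2 fold change was 0.30 in MM1S (0.18 to 0.43, edgeR adjusted p = 0.000418) and 0.14 in MM1R (0.01 to 0.26, edgeR adjusted p = 0.0624). Fitted to the MM1R vehicle and TAK-981 libraries alone, the MM1R change of TYK2 was 0.15 and passed (edgeR adjusted p = 0.000801). The difference in TAK-981 change between the lines did not pass for either kinase.

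STAT2, the subunit of ISGF3 with the transactivation domain, rose in both lines. It was at 291 and 314 CPM in MM1S vehicle and at 532 and 588 in MM1S TAK-981, and at 232 and 226 in MM1R vehicle and 445 and 433 in MM1R TAK-981. The groups were far apart, with a log2 fold change of 0.89 in MM1S (95% interval 0.76 to 1.01, edgeR adjusted p = 6.93e-10) and 0.94 in MM1R (0.82 to 1.07, edgeR adjusted p = 4.51e-10). After TAK-981 it reached 112 and 124 RPKM in MM1S, above the 76.2 and 73.4 RPKM of JAK1, which had led in vehicle.

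All 3 interferon regulatory factors that could be tested rose. IRF7 was at 16.7 and 16.1 CPM in MM1S vehicle and at 55.3 and 56.2 in MM1S TAK-981, from 356 and 315 counts to 1066 and 1092. In MM1R it was at 17.3 and 16.9 CPM in vehicle and at 58.1 and 57.4 in TAK-981. Replicates of a group lay close together and the groups were widely separated, with a log2 fold change of 1.76 in both lines (95% interval 1.60 to 1.92 in MM1S and 1.60 to 1.91 in MM1R, edgeR adjusted p = 2.2e-12 and 1.27e-12). In MM1S 98% of the genes tested had a lower log2 fold change than IRF7. IRF1 went from 128 and 133 to 191 and 215 CPM in MM1S and from 136 and 137 to 221 and 223 in MM1R. Its log2 fold change was 0.64 (0.50 to 0.77, edgeR adjusted p = 2.55e-07) and 0.70 (0.56 to 0.84, edgeR adjusted p = 7.56e-08). C5orf56, which overlaps it on the other strand, rose by 0.78 in MM1S and 0.91 in MM1R, and its part in the IRF1 counts was not tested. IRF3, which is activated by phosphorylation and is not a classical interferon-stimulated gene, went from 76.2 and 85.1 to 107 and 134 CPM in MM1S and from 59.8 and 59.5 to 80.5 and 83.9 in MM1R. The treated libraries lay above the vehicle libraries in both lines, with a log2 fold change of 0.58 (0.41 to 0.76, edgeR adjusted p = 1.27e-05) and 0.46 (0.28 to 0.64, edgeR adjusted p = 0.000172). Omitting single libraries moved the MM1S value of IRF3 between 0.41 and 0.73.

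**Figure D2:**
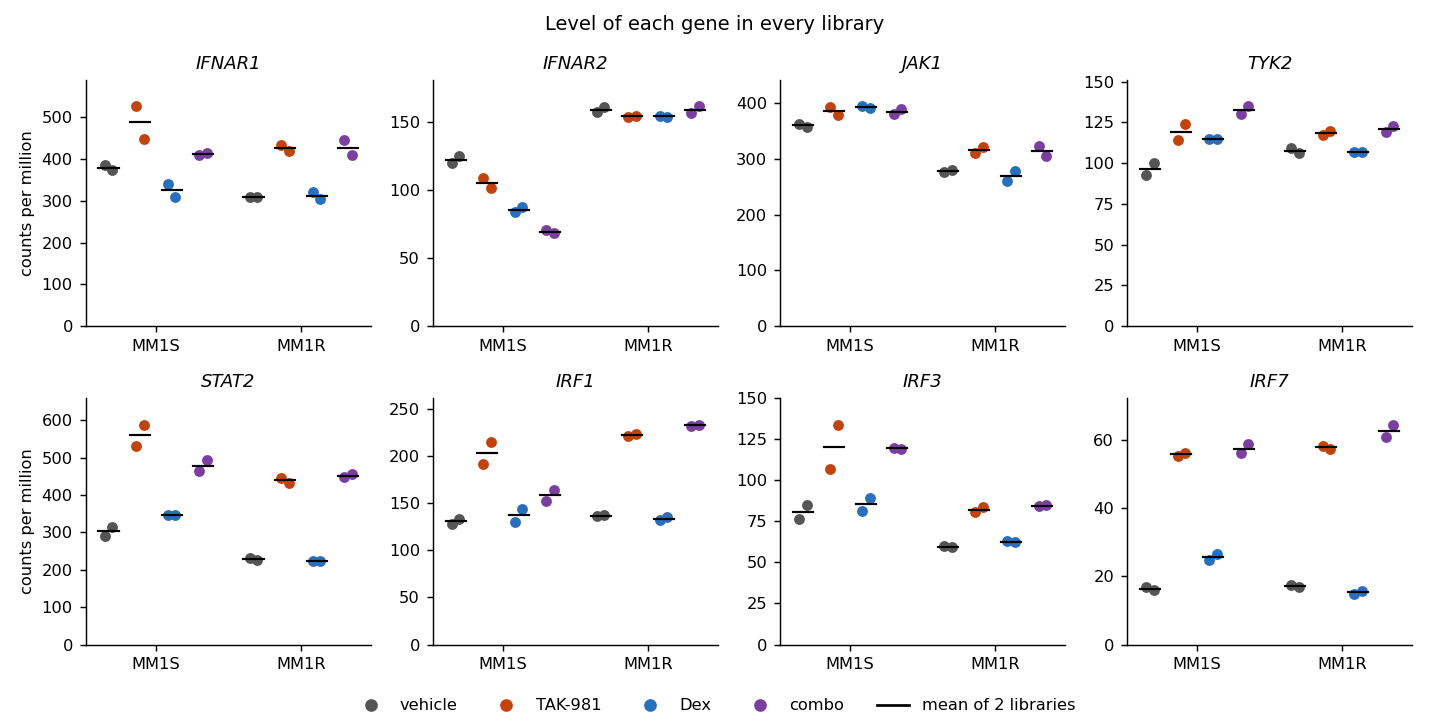
Level of the 8 genes tested in every library (vertical axis, CPM from 0; each gene has its own scale), with points for the 2 libraries of each group and a line for their mean. IRF7 stands at 16.1 to 17.3 CPM in vehicle and 55.3 to 58.1 CPM in TAK-981 in both lines, while IFNAR2 falls stepwise in MM1S, to 68.3 CPM in combo, and stays between 154 and 162 CPM in MM1R.

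Whether the lines differed in their TAK-981 change was tested as an interaction of line and treatment. None of the 8 genes passed, where 4.16% of all genes did. The difference, MM1R minus MM1S on the log2 scale, ran from −0.17 for TYK2 (95% interval −0.35 to 0.01) to 0.16 for IFNAR2 (−0.00 to 0.33), with edgeR adjusted p between 0.248 and 0.985. For IRF7 it was −0.01, with an interval from −0.22 to 0.21, and for STAT2 0.05, from −0.12 to 0.23. Intervals of this width do not show that the lines responded alike. Of the 54 interferon-stimulated genes tested, 17 passed with a larger change in MM1R, none with a smaller one and 37 did not pass, at a median difference of 0.42 against −0.00 over all genes. In vehicle, 15 of these 54 were lower in MM1R than in MM1S, 9 were higher and 30 did not pass (median 0.07). Of all genes tested, 48.2% differed there. Whether the untreated level bore on the larger changes in MM1R was not tested.

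Dex alone changed some of the 8 genes in MM1S, and none of them passed in MM1R. In MM1S 3 of the 8 genes rose and 2 fell, where 42.3% of all genes tested changed, so this count is near the background. IRF7 rose 1.56-fold, and IFNAR2 fell to 0.702 of its vehicle level. In MM1R the background was 0%: no gene of the 14215 passed in edgeR or in DESeq2, and 395 had an unadjusted edgeR p under 0.05, none of them among the 8. The TAK-981 and Dex comparisons of a line share their 2 vehicle libraries.

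In MM1S IRF7 was at 24.8 and 26.4 CPM under Dex, above both vehicle libraries at 16.7 and 16.1, with a log2 fold change of 0.64 (95% interval 0.47 to 0.80, edgeR adjusted p = 2.84e-06). In MM1R it was at 14.8 and 15.8 CPM, below both vehicle libraries at 17.3 and 16.9 (−0.16, interval −0.33 to 0.00, edgeR adjusted p = 1). The lines differed in this change by −0.80 (−1.04 to −0.57, edgeR adjusted p = 2.54e-05). IFNAR2 was at 84 and 87.6 CPM under Dex in MM1S, well below the 120 and 125 of vehicle (−0.51, interval −0.63 to −0.39, edgeR adjusted p = 9.81e-07), and at 155 and 154 in MM1R (−0.04, interval −0.16 to 0.08). For IFNAR2 the difference between the lines was 0.47 (0.30 to 0.64, edgeR adjusted p = 0.000216). Its neighbour IL10RB had 0.14 in MM1S (edgeR adjusted p = 0.0973).

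The other Dex changes were smaller. TYK2 rose by 0.25 in MM1S (115 CPM in both Dex libraries, edgeR adjusted p = 0.00242). STAT2 rose by 0.19, with 345 and 346 CPM against 291 and 314 in vehicle (edgeR adjusted p = 0.0143), and IFNAR1 fell by 0.22, with 341 and 309 against 385 and 373 (edgeR adjusted p = 0.0156). Both of these calls were lost without vehicle replicate 1 (0.14 for STAT2 and −0.20 for IFNAR1) and without Dex replicate 2 (0.18 and −0.16), which left 3 genes called in place of 5. JAK1 (0.13, edgeR adjusted p = 0.0695), IRF1 (0.07, 0.436) and IRF3 (0.08, 0.463) did not pass, and the IRF1 and IRF3 libraries overlapped those of vehicle. In all, the interaction of line and Dex passed for 4 of the 8 genes, with 1 higher and 3 lower in MM1R, where 28.1% of all genes passed. Beside IRF7 and IFNAR2 these were TYK2 (−0.26, edgeR adjusted p = 0.0263) and STAT2 (−0.23, edgeR adjusted p = 0.0465). Of 16 fits that each omitted a library, 11 lost the STAT2 call (values from −0.29 to −0.18 over the 16) and 6 lost that of TYK2 (−0.32 to −0.21). Both were lost, leaving 2 of the 4 genes, without MM1S vehicle replicate 1, MM1S Dex replicate 2, or any of the 4 MM1R vehicle and Dex libraries.

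**Figure D3:**
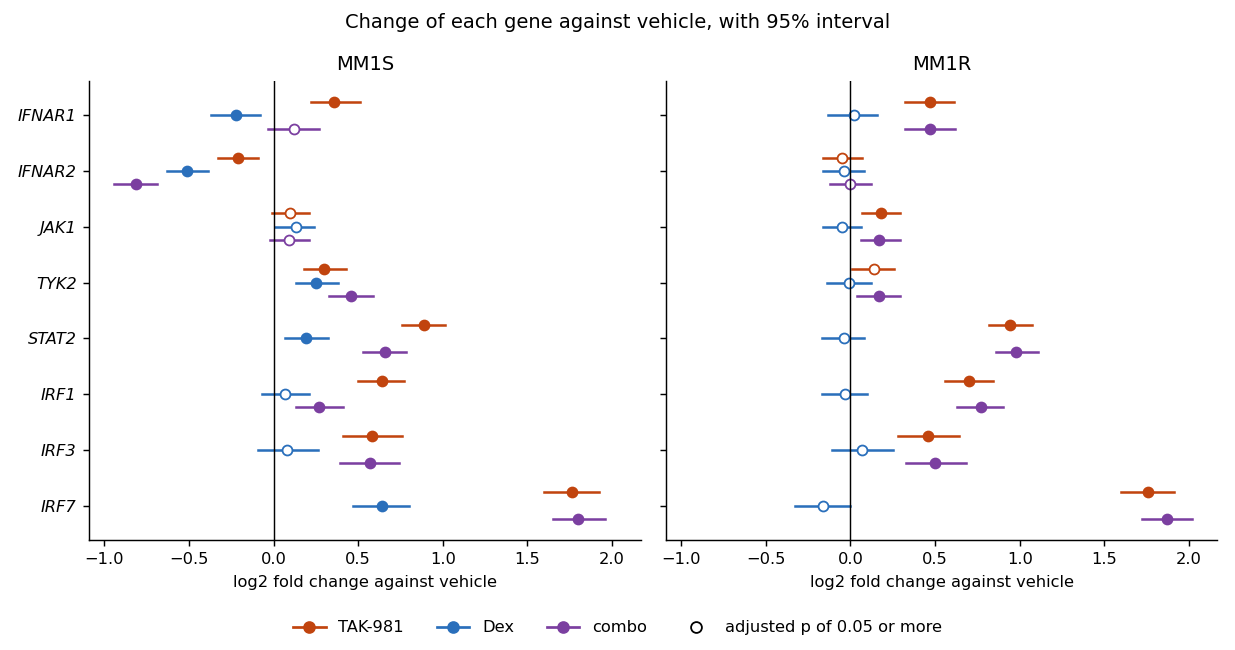
Log2 fold change against vehicle (horizontal axis) of the 8 genes tested for each treatment of both lines, with 95% intervals; open points have an edgeR adjusted p of 0.05 or more. TAK-981 moves IRF7 by 1.76 in both lines. Dex moves it by 0.64 in MM1S, and its MM1R value of −0.16 did not pass.

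With both agents the pathway moved in MM1S much as with TAK-981 alone, but IFNAR2 fell further, STAT2 and IRF1 rose less, and IFNAR1, which rose with TAK-981, no longer passed against vehicle (0.12, edgeR adjusted p = 0.151). Against vehicle, combo raised 5 genes and lowered 1 in MM1S, where 60.3% of all genes changed, and raised 7 and lowered none in MM1R, where 51.5% did. Against Dex, 6 rose and 1 fell in MM1S (background 47.6%), and 7 rose and none fell in MM1R (48.4%). Against TAK-981 alone, 4 genes were lower and none higher in MM1S (35.1%), and none passed in MM1R (0%). In that last comparison no gene of the table passed in edgeR or DESeq2 and 214 had an unadjusted edgeR p under 0.05, none of them among the 8.

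IFNAR2 reached its lowest level in MM1S combo, at 70.7 and 68.3 CPM, below every other library of the series. That was a log2 fold change of −0.81 against vehicle (95% interval −0.94 to −0.69, edgeR adjusted p = 7.86e-10) and of −0.60 against TAK-981 alone (−0.73 to −0.48, edgeR adjusted p = 1.79e-07). In MM1R combo it was at 157 and 162 CPM, where the vehicle libraries were at 158 and 161 (0.00, interval −0.12 to 0.12). STAT2 was at 463 and 493 CPM in MM1S combo, below both TAK-981 libraries at 532 and 588 and above vehicle at 291 and 314, a log2 fold change of −0.23 against TAK-981 (−0.35 to −0.11, edgeR adjusted p = 0.0051). IRF1 lay likewise between the groups, at 152 and 164 CPM (−0.36 against TAK-981, interval −0.50 to −0.22, edgeR adjusted p = 0.000292). IFNAR1, at 410 and 415 CPM, was lower than with TAK-981 by −0.24 (edgeR adjusted p = 0.011). The STAT2 call against TAK-981 was lost without TAK-981 replicate 2 (−0.16) or combo replicate 1 (−0.19), and the IFNAR1 call without TAK-981 replicate 1 (−0.12) or without either combo library. With only the MM1S TAK-981 and combo libraries fitted, 2 of the 4 genes passed.

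IRF7 stood at 56 and 58.8 CPM in MM1S combo and at 60.7 and 64.4 in MM1R combo, 3.49-fold and 3.66-fold above vehicle. In MM1S this was close to its level with TAK-981 alone (log2 fold change 0.04, 95% interval −0.10 to 0.18). IRF3 rose by 0.57 in MM1S combo and 0.50 in MM1R combo, and TYK2 by 0.46 and 0.17 (edgeR adjusted p = 2.88e-06 and 0.0267). The MM1R call of TYK2 was lost without any 1 of the 4 vehicle and combo libraries (0.14 to 0.19). JAK1 rose in MM1R combo by 0.17 (edgeR adjusted p = 0.0111, lost without vehicle replicate 1 or combo replicate 1), against 0.09 in MM1S (edgeR adjusted p = 0.145). Against Dex in MM1S, IRF1 rose by 0.20 (edgeR adjusted p = 0.0171), a call lost without Dex replicate 1 (0.13) or combo replicate 2 (0.15), and TYK2 by 0.21, lost without combo replicate 2 (0.18). Against Dex in MM1R, TYK2 rose by 0.18, a call lost without either Dex library or combo replicate 2 (0.15).

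Whether the 2 agents together did more or less than the sum of their single changes on the log2 scale was tested as their interaction. In MM1S 3 of the 8 genes passed, all in the direction of a smaller change than the sum, where 14.9% of all genes passed. For IRF7 the single changes of 1.76 and 0.64 summed to 2.40 and combo gave 1.80, a difference of −0.59 (95% interval −0.81 to −0.38, edgeR adjusted p = 0.000871). For STAT2 the sum was 1.08 and combo gave 0.66 (−0.42, interval −0.60 to −0.25, edgeR adjusted p = 0.00244). For IRF1 the sum was 0.70 and combo gave 0.27 (−0.43, interval −0.63 to −0.23, edgeR adjusted p = 0.00474), whereas the overlapping C5orf56 had −0.07 (edgeR adjusted p = 0.718). In a fit of the MM1S libraries alone, the IRF1 difference had an adjusted p of 0.0612. The other 5 genes ran from −0.13 to −0.02. Of all genes that passed, 36.6% were above the sum, a share that was 53.2% with library size as the only scaling. The 3 genes kept their direction and their call there.

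In MM1R no interaction passed, in the 8 genes or in the table (0%, with edgeR and with DESeq2), and 400 genes had an unadjusted edgeR p under 0.05. One of them was IRF7, at 0.28 (95% interval 0.06 to 0.50, edgeR adjusted p = 1). The other 7 ran from −0.03 to 0.10.

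**Figure D4:**
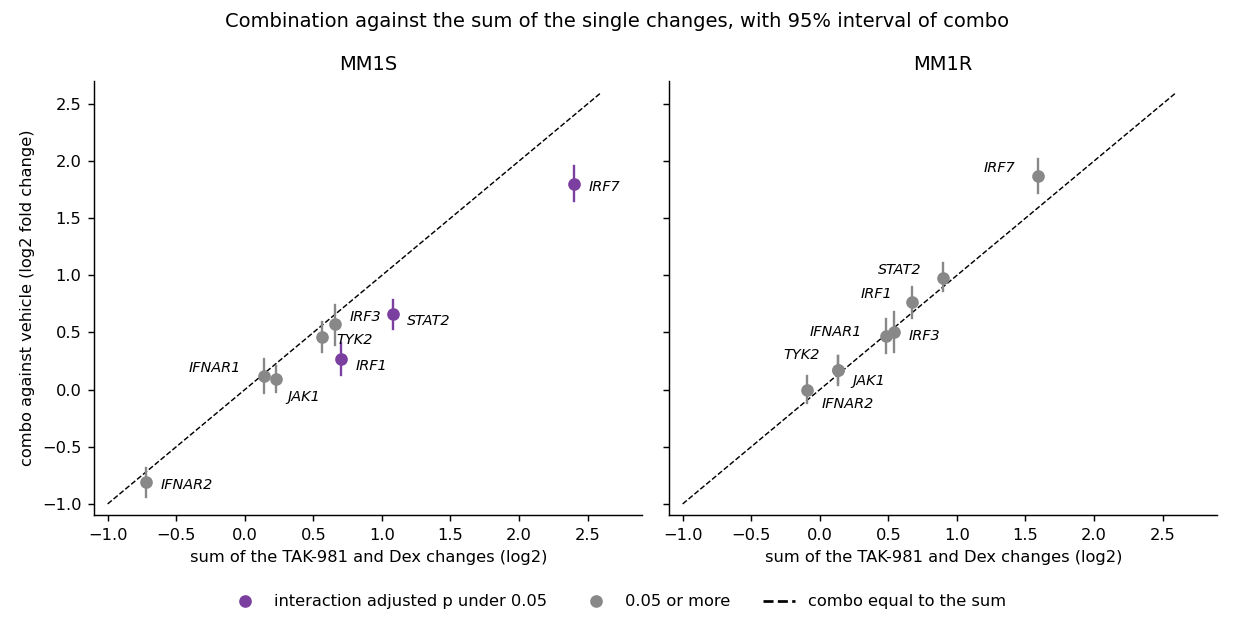
Log2 fold change of combo against vehicle (vertical axis, with 95% interval) plotted on the sum of the TAK-981 and Dex changes (horizontal axis), by line; purple points passed the test of the interaction, and the dashed line marks combo equal to the sum. In MM1S IRF7, STAT2 and IRF1 lie under the line, by 0.59, 0.42 and 0.43, and in MM1R no gene left it by the test.

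The rest of the pathway was read from lists of related genes. Interferons themselves were not counted at a usable level. Of 21 interferon genes of types I, II and III in the table, 12 were at 0 in every library, none passed the filter, and the highest count of any in any library was 4. The counts below for TAK-981 stand beside 49% of all genes tested changed in MM1S and 53.4% in MM1R. Of the 4 other receptor chains, 2 rose with TAK-981 in MM1S (median 0.16) and 3 rose and 1 fell in MM1R (median 0.24), and the MM1S count is near the background. IFNGR1, the ligand-binding chain of the interferon gamma receptor, rose by 0.54 in each line, from 24.9 ± 0.306 to 36.1 ± 2.61 CPM in MM1S (edgeR adjusted p = 4.21e-05 and 3.15e-05). It rose with Dex in MM1S too, by 0.91, where IFNAR2 fell. IFNGR2, its partner, had 0.10 in MM1S (edgeR adjusted p = 0.238) and rose by 0.25 in MM1R (0.00524). The chain that fell in MM1R was IFNLR1, the interferon lambda receptor (−0.20, edgeR adjusted p = 0.0356).

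Of 7 other JAK and STAT genes, 5 rose and 1 fell with TAK-981 in MM1S (median 0.56) and 6 rose and none fell in MM1R (median 0.80). JAK3, which serves receptors with the common gamma chain, rose by 1.04 and 1.10, and STAT5A, which acts downstream of cytokine receptors, by 1.19 and 1.26 from a low level. STAT3, which carries the interleukin 6 signal, rose by 0.55 and 0.44. JAK2, the kinase of IFNGR2, fell by 0.33 in MM1S (edgeR adjusted p = 0.00115) and rose by 0.30 in MM1R (edgeR adjusted p = 0.00212), and the difference between the lines passed (0.64, edgeR adjusted p = 0.00176).

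Among the 5 other IRF genes tested, 2 rose and 1 fell with TAK-981 in MM1S (median 0.24) and 3 rose and 1 fell in MM1R (median 0.31), a MM1S count that is also near the background. The one that fell in both lines was IRF4, the plasma cell factor, from 1230 ± 39.9 to 808 ± 47.4 CPM in MM1S (log2 fold change −0.60, edgeR adjusted p = 7.87e-08) and from 1460 ± 11.9 to 926 ± 23.3 CPM in MM1R (−0.66, edgeR adjusted p = 3.13e-08). With Dex its level in MM1S was 659 ± 11.7 CPM (−0.90 on the log2 scale, edgeR adjusted p = 5.91e-10), and this change differed between the lines by 0.87. IRF2, which competes with IRF1 for its sites, rose by 0.24 and 0.31, and IRF5, a factor downstream of Toll-like receptors, by 0.30 and 0.34. IRF8, a factor of myeloid and B cells, had 0.25 in MM1S (edgeR adjusted p = 0.0901) and 0.50 in MM1R (edgeR adjusted p = 0.00073), and rose with Dex in MM1S by 0.82.

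A list of 15 regulators of the pathway, mostly inhibitors, held 9 genes that rose and 2 that fell with TAK-981 in MM1S (median 0.27), and 8 and 2 in MM1R (median 0.25). USP18, the isopeptidase that displaces JAK1 from IFNAR2, rose by 3.45 in MM1S and 3.94 in MM1R, from 0.32 ± 0.0544 to 3.49 ± 0.421 CPM and from 0.371 ± 0.233 to 5.72 ± 1.55 CPM (edgeR adjusted p = 4.92e-07 and 1.07e-08). SOCS1, which inhibits JAK kinases, rose by 0.91 and 1.09 with TAK-981 and by 1.11 with Dex in MM1S. SOCS3 stayed under 1 CPM in every group (0.30, edgeR adjusted p = 0.712, and 0.32, 0.694). PIAS1, a SUMO ligase that inhibits STAT signalling, had −0.05 in MM1S (edgeR adjusted p = 0.647) and rose by 0.26 in MM1R (0.00775). The 2 that fell were the same in both lines, SOCS2, an inhibitor of growth hormone signalling (−0.46 and −0.41), and PTPN11, the phosphatase SHP2 (−0.20 and −0.26).

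Of the 55 interferon-stimulated genes listed, 54 were tested. With TAK-981, 52 rose and 1 fell in MM1S (median 1.31), and 52 rose and none fell in MM1R (median 1.61). The one that fell was GBP2, a guanylate-binding protein (−0.54, edgeR adjusted p = 0.00742, against 0.48 with 0.26 in MM1R). MX1, an antiviral GTPase, rose by 3.67 and 5.05 (edgeR adjusted p = 1.04e-16 and 9.31e-19), and XAF1, a proapoptotic protein, by 3.95 and 6.40 (3.31e-13 and 8.74e-15). PARP9, an ADP-ribosyltransferase partner of DTX3L, rose by 3.63 and 4.05, and RSAD2, the antiviral enzyme viperin, by 6.06 and 6.88. Both MX1 and XAF1 were among the 17 with a larger change in MM1R, by 1.38 and 2.44. The lists were drawn up with results of these data known, so their counts are a description of these libraries. The change of the 8 signalling genes was smaller in median than that of this list in both lines, at 0.47 against 1.31 and at 0.46 against 1.61, a difference that was not tested.

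**Figure D5:**
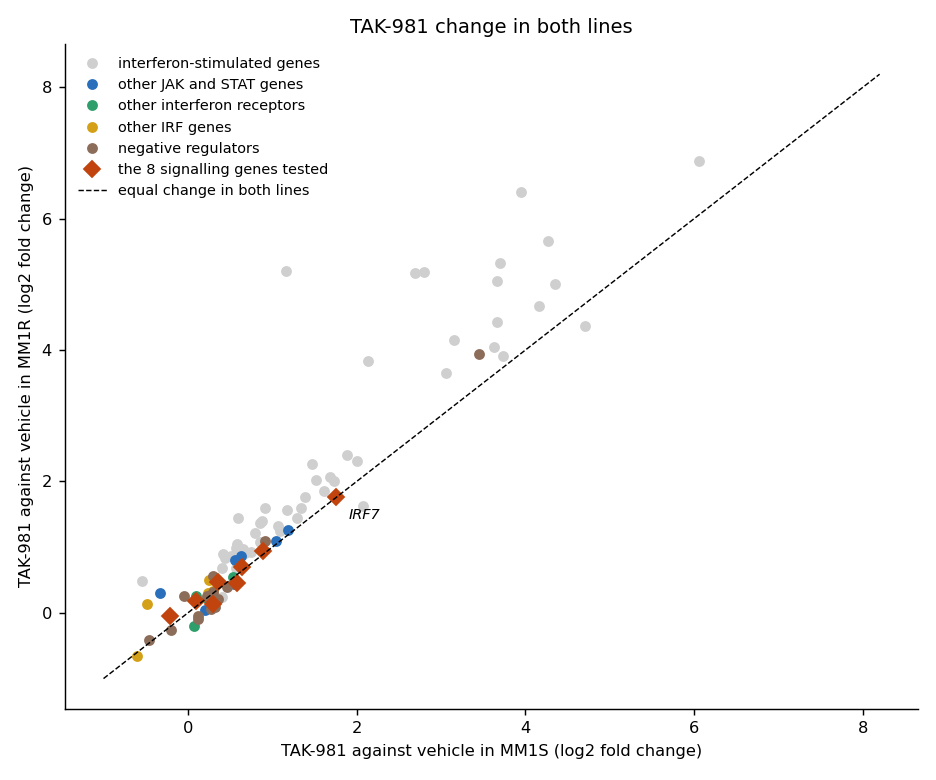
TAK-981 log2 fold change in MM1R (vertical axis) against that in MM1S (horizontal axis) for the 8 signalling genes and 5 lists of related genes, with a dashed line for equal change; IFI44L, at 0 in both MM1R vehicle libraries, is not drawn. The 8 genes lie within 0.17 of the line, with IRF7 at 1.76 in both lines, and many interferon-stimulated genes lie above it.

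The genes whose log2 CPM followed each gene most closely over the 16 libraries were taken as a description. These correlations are across libraries that fall into treatment groups and share controls, so they largely restate the group pattern. IRF7 was followed by PARP12 (Pearson r = 0.992), CD68 (0.989) and IFI44 (0.989), of which PARP12 and IFI44 are on the interferon-stimulated list. STAT2 was followed by C11orf95 (0.985), HLA-E (0.982) and ZSCAN30 (0.981), and IRF1 by VPS26B (0.984), IL2RG and SNORA3B (both 0.980). For IFNAR2 they were ARSB (0.989), the sterol synthesis enzyme HMGCS1 (0.988) and the stress ligand MICB (0.984), and for IFNAR1 TCF4 (0.980), TMEM30A (0.973) and WDR26 (0.972). IRF3 was closest to UNKL (0.988), ERCC1 and LTBP4 (both 0.981), JAK1 to TGOLN2, ZNF217 (both 0.982) and SOGA1 (0.975), and TYK2 to SETD1B (0.958), SLC25A20 (0.953) and USP20 (0.945). No gene of the 9 was among the 3 closest of another.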

How the data were processed

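The deposited table holds whole-number read counts per gene, which the authors made from total RNA reads with bcl2fastq 2.18.0.12, STAR 2.6.0 and HTSeq 0.6.0, per the labels aligned to hg19; edgeR 3.28.1 is also among the tools in the submitters' processing notes, and strand and overlap settings are not given in the sources used here. Columns were matched to samples by title, and all 16 were used. Counts were tested with edgeR 4.0.16 in R 4.3.3 (with limma 3.58.1): TMM scaling, filterByExpr (minimum count 10, minimum total 15), 1 term per group over all 16 libraries (8 residual degrees of freedom) and the robust quasi-likelihood F test, with Benjamini-Hochberg adjustment over 14215 genes and a threshold of 0.05. All tests were two-sided. Intervals are 95% from the quasi-likelihood fit. CPM used the effective library size, RPKM the gene length of the table, and correlations log2 CPM with a prior count of 2. The scripts were tested on simulated data with known changes. Depth was 15707587 to 24796539 counts per library, and count floors (3 counts) cover counting error only.

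The labels state duplicates and nothing says that these were separate cultures, so p-values measure the spread between these libraries, which may be technical. The members and lists were chosen with earlier results of these data known, and 1 pathway gene is not reported here. Named genes were the 9 members, 11 preset pathway genes, up to 3 others per list and line with the smallest adjusted p (absolute log2 fold change at least 1, except in the interferon-stimulated list) and the 3 genes most alike to each member. Genes that overlap a member, and GBP2, IFNLR1, IRF5, SOCS2 and PTPN11, were named after their values were seen. Alternatives were RLE factors, library size only, no filter, only the groups compared, the replicate number as a block, DESeq2 1.42.0, and each library left out in turn.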

Additional observations from a re-analysis of the deposited data

Results flagged for a closer look

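The effect of one agent differed with the other agent, or between the lines, in 7 results, each by a test of the interaction itself. In MM1S combo changed less than the sum of the single changes for IRF7 (−0.59 on the log2 scale), IRF1 (−0.43) and STAT2 (−0.42). Over the 16 fits that omitted a library these differences ran from −0.64 to −0.54, −0.51 to −0.34 and −0.49 to −0.35. In a fit of the MM1S libraries alone, the IRF1 difference did not pass (edgeR adjusted p = 0.0612). The Dex change of MM1R minus that of MM1S was −0.80 for IRF7, 0.47 for IFNAR2, −0.26 for TYK2 and −0.23 for STAT2. IRF7 and IFNAR2 passed under every alternative tried, whereas TYK2 and STAT2 did not (values are given with the processing alternatives). No explanation of these differences was tested.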

How the results depend on the processing

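The 8 genes in 15 comparisons gave 120 values, of which 62 passed the threshold. Over 22 alternatives none of the 62 changed direction, and 57 of 1364 recomputed values lost the call. Omitting a library accounted for 43 of these, and the other 14 came from 3 settings. Fitting only the groups compared lost IFNAR2 with TAK-981 (−0.24, adjusted p = 0.0559), STAT2 with Dex (0.0602), IRF1 in combo against Dex (0.0515), IFNAR1 and STAT2 in combo against TAK-981 (0.134 and 0.148) and the IRF1 interaction (0.0612), all in MM1S. The same setting gained TYK2 with TAK-981 in MM1R (edgeR adjusted p = 0.000801) and IFNAR1 in the interaction of line and Dex (edgeR adjusted p = 0.0425). No filter and library size only lost calls of TYK2 and STAT2 at differences of 0.27 or less. Of the 58 values short of the threshold, 36 were smaller than their standard error: of their 792 recomputed values none gained a call and 53 turned direction. Of 484 recomputed values of the other 22, 18 gained a call and 2 turned direction: IRF1 with Dex in MM1S was −0.011 without Dex replicate 2, over a range of −0.011 to 0.14, and the line difference of IFNAR1 with TAK-981 was −0.007 without MM1S TAK-981 replicate 2, over −0.007 to 0.22.

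The number of the 8 genes that passed with Dex in MM1S was 5, and 3 to 6 with a library omitted. For combo against TAK-981 in MM1S it was 4, with 2 when only the groups compared were fitted and 2 to 5 with a library omitted. For the interaction of line and Dex it was 4, with 2 for library size only, 2 without a filter and 2 to 5 with a library omitted. Over all genes, the interaction of both agents in MM1S gave 2125 calls, 779 from the MM1S libraries alone and 1044 to 3724 with a library omitted, and that of line and TAK-981 gave 592, 1313 without a filter and 200 to 2292 with a library omitted. In MM1R, the comparisons with no call gave 30 (Dex), 9 (combo against TAK-981) and 19 (interaction) genes without a filter, and combo against TAK-981 gave 3 when only the groups compared were fitted.

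Replicate numbers were shared across groups. Deviations of same-numbered libraries correlated over 0.1 in 6 of 6 group pairs of MM1S (0.15 to 0.62) and in 4 of 6 of MM1R (0.07 to 0.25) over 9646 genes. This is a hint from the data: neither the labels nor the study's methods say what a number shares, and each comparison holds only 2 numbers. With the replicate number as a block no call of the 8 genes was lost, and 6 were gained: TYK2 in combo against TAK-981 in MM1S (adjusted p = 0.0139) and with TAK-981 in MM1R (0.0212), JAK1 with Dex in MM1S (0.0324), IFNAR1 in MM1S combo (0.0458), and IFNAR1 and JAK1 in the interaction of line and Dex (0.0117 and 0.0457), where 6 of the 8 genes then passed in place of 4. The block moved the calls over all genes from 2125 to 3579 for the interaction of both agents in MM1S and from 592 to 2061 for that of line and TAK-981.

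Each group had 2 libraries, and a group left with 1 was assumed to vary like the others. IRF7 in vehicle rested on 315 to 418 counts per library, and IRF9 could not be assessed.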
